A study of Mus musculus with 12 samples.

Results

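The genes described here are 38 genes of fatty acid use and of PPAR signalling in the mouse heart. They were taken by symbol and cover PPAR regulators, fatty acid uptake and activation, the carnitine shuttle, beta oxidation, electron transfer, thioesterases and uncoupling proteins, lipid droplets and 2 further PPAR targets. All 38 were found in the count table, and all 38 were among the 15952 genes that passed the filter on low counts. Bulk RNA sequencing was done on frozen mouse heart tissue in 12 libraries, 4 in each of 3 groups. The I/R + ML264 hearts had 30 min of ischemia and 2 h of reperfusion and were given ML264, a small molecule used to inhibit the transcription factor KLF5. The I/R hearts had the same injury without ML264, and the Sham hearts had a sham operation, with 2 h also in their label. The series was made to ask which pathways KLF5 regulates in ischemia and reperfusion. The labels used here leave out strain, age, the dose and time of ML264 and the region of the heart that was sampled. Nor do they state whether libraries stem from different animals, and p-values therefore reflect the scatter among these 12 libraries only.

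Fatty acids are the main fuel of the adult heart. They are freed from lipoproteins by lipoprotein lipase, taken up and activated to acyl-CoA, and carried into mitochondria by the carnitine shuttle. There the beta oxidation spiral shortens them step by step and passes electrons to ubiquinone. PPARA, a nuclear receptor that binds DNA with RXRA, drives many genes of this route, and KLF5 has been described as an activator of Ppara in mouse cardiomyocytes.

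After I/R, 4 of the 38 genes changed against Sham, 3 higher and 1 lower, where 7.75% of all tested genes were called, 4.58% higher and 3.17% lower. Of 5313 tested genes of like abundance, 10.7% were called, near the 10.5% of the 38 genes. Ucp2, an uncoupling protein of the inner mitochondrial membrane, and Pdk4, the kinase that switches pyruvate dehydrogenase off, rose 1.97-fold and 1.78-fold. Lpl, lipoprotein lipase, rose 1.17-fold. Slc25a20, which exchanges acylcarnitine for carnitine across the inner membrane, fell to 0.802 of its Sham level. None of the 15 enzymes and electron carriers of beta oxidation was called, and neither comparison of I/R + ML264 called any of the 38 genes. Over all tested genes, I/R + ML264 had 0.0502% called against I/R and 0.288% against Sham. The calls come from the quasi-likelihood test of edgeR, with a Benjamini-Hochberg adjusted p under 0.05 over all 15952 genes. Without 1 library of Sham or I/R the number of called genes was 1 (without Sham library 1 or 3 or I/R library 1, 2 or 4) or 2 (without Sham library 2 or 4 or I/R library 3).

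**Figure D1:**
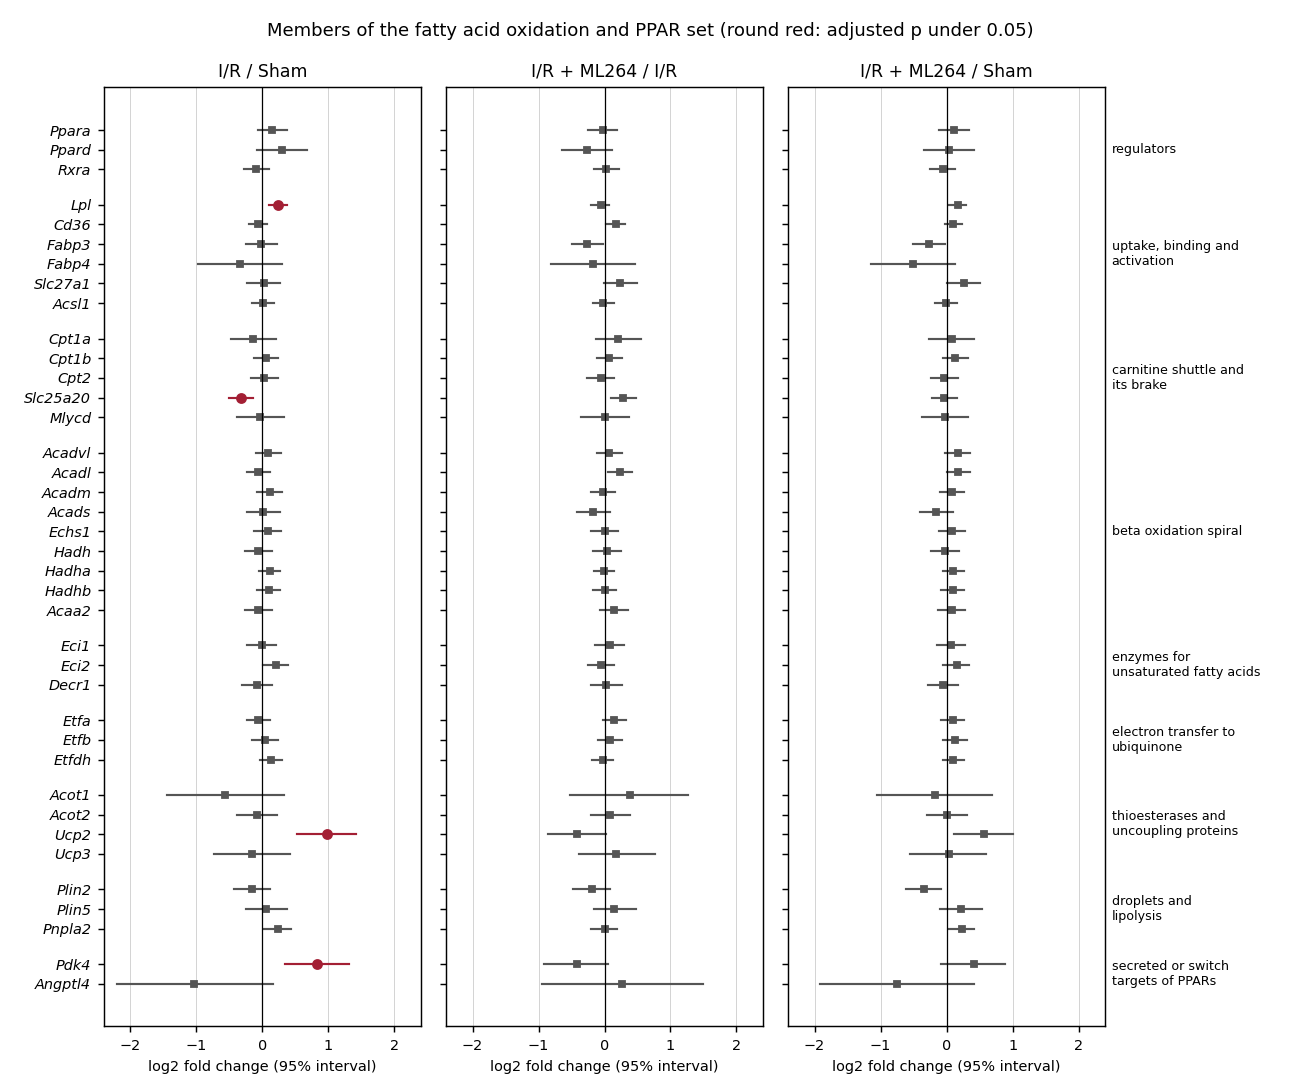
Log2 fold change with its 95% interval for each of the 38 genes (rows, grouped by role) in the 3 comparisons (columns), from the edgeR fit of 12 libraries. Round red points mark the 4 genes called in I/R against Sham, and no gene is called in the other 2 comparisons.

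Total estimated counts were 22.26 to 29.93 M (mega) per library, and the 38 genes together took 0.7397% to 0.8842% of them. Levels are given as CPM, counts scaled by TMM factors to a library of 1 M. The 95% intervals come from the spread between libraries. A limit of 3 counts, which covers counting error only, stood for 0.1002 to 0.1348 CPM. Libraries differed in ways the groups do not fully explain. The Y-linked gene Ddx3y was at 0.106 to 0.484 CPM in I/R + ML264 libraries 1 and 2 and I/R libraries 1 and 4, whereas the remaining 8 libraries, with all 4 of Sham among them, had 38.8 to 52 CPM. The clock gene Arntl was at 11.1 CPM in I/R library 1 with 10.4 and 15.3 CPM in Sham libraries 2 and 3. The remaining 9 libraries had 1.05 to 3.26 CPM. With Ddx3y as a covariate, or with only the 8 libraries above 10 CPM of Ddx3y, none of the 38 genes was called, and with Arntl as a covariate only Slc25a20 was. Every library with low Ddx3y came from an injured heart. The Ddx3y difference, which may reflect the sex of the hearts, thus cannot be fully told apart from the injury in I/R against Sham. The part of the Ddx3y or Arntl difference in the results was not tested further. Klf5 itself was at 0.0804 to 0.549 CPM over the 12 libraries, near the limit of 3 counts, and did not pass the filter. All 12 cardiomyocyte markers passed the filter, at a summed 101804 to 112217 CPM in I/R + ML264, 98957 to 113843 CPM in I/R and 94262 to 107750 CPM in Sham. Of these 12, 1 was called higher and 0 lower in I/R against Sham. In such bulk tissue, fewer cells of a type and less RNA per cell cannot be told apart.

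The deposited table gives values per transcript, and within a gene these values did not stay with their transcript names from library to library. Lpl has 5 transcripts in the table. Its highest transcript held 74.8% to 91.4% of the gene's count in every library, but 4 different transcripts took that place. All 32 of the 38 genes with several transcripts had more than 1 transcript in the highest place in some library. Over these genes the median coefficient of variation across libraries was 141% when values were followed by transcript name and 32% when followed by rank. Among 493 genes with 2 transcripts whose higher one held at least 80% of at least 100 counts, the same transcript was the higher one in 49.6% of comparisons between 2 libraries. The Lpl sum over its transcripts lay between 1734 and 2258 CPM in all 12 libraries. Every value here is therefore a sum per gene, and no transcript is compared. The cause of the pattern was not tested.

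**Figure D2:**
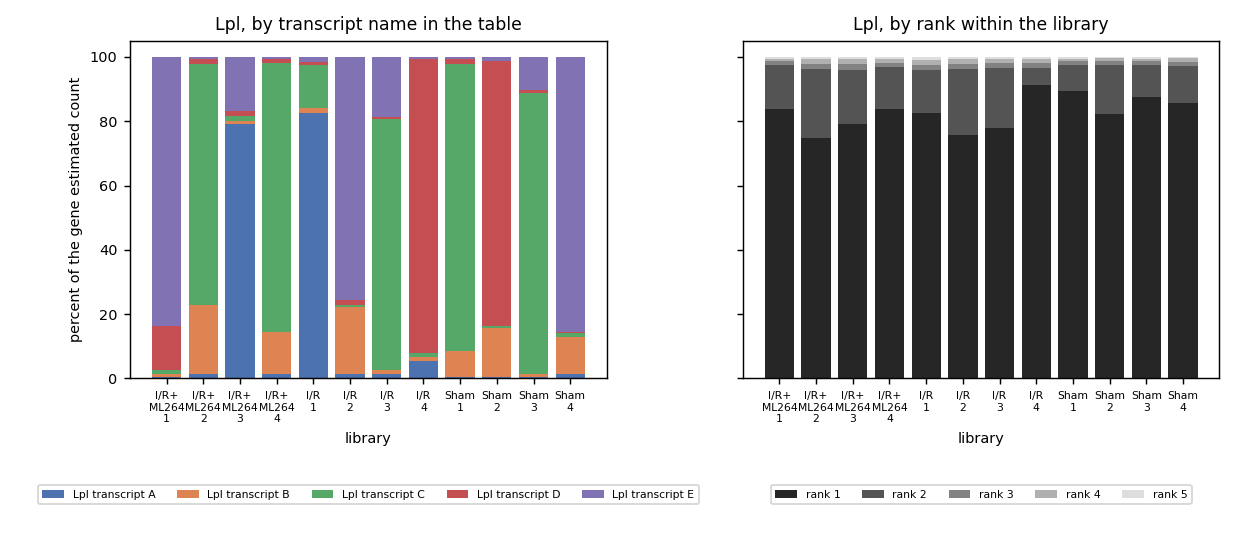
Percent of the Lpl estimated count in each of 12 libraries held by its 5 transcripts, by the name in the deposited table (left, colours) and by rank within the library (right, grey). The rank 1 share stays between 74.8% and 91.4% while the named transcript in that place changes among 4.

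Per kilobase of the longest coding transcript, the highest of the 38 genes were Lpl (499 ± 39.6 CPM per kb), Cd36 (363 ± 24.2) and Hadhb (323 ± 27.2), as mean ± SD over the 12 libraries. Pdk4 was at place 5 with 159 ± 49.2 CPM per kb, and Ucp2 at place 27 with 8.88 ± 2.87. Ppara was at 8.45 ± 0.905 CPM per kb. The 2 lowest were Acot1 (0.402 ± 0.174) and Angptl4 (0.282 ± 0.2).

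Stretches upstream of the RefSeq start (GRCm38.p6), from 250 to 51 bases before it, are shown for the 3 called genes that have an entry, Ucp2 (chr7:100493108-100493307, plus strand), Pdk4 (chr6:5496329-5496528, minus strand) and Slc25a20 (chr9:108661886-108662085, plus strand). Ucp3 (chr7:100472741-100472940, plus strand), the gene next to Ucp2 on chromosome 7, is shown beside it as a neighbour that was not called. Capitals mark AGGTCA, the single site of nuclear receptors, and CCNCNCCC, a GC-rich motif of the KLF type, on either strand.
Ucp2: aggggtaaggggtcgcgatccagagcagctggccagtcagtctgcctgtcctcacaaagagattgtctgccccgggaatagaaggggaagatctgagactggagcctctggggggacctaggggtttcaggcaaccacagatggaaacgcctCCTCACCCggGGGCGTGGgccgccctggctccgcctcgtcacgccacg
Ucp3: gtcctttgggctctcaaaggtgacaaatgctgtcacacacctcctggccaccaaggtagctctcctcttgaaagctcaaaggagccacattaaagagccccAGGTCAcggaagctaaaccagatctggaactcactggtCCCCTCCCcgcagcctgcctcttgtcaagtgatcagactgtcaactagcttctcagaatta
Pdk4: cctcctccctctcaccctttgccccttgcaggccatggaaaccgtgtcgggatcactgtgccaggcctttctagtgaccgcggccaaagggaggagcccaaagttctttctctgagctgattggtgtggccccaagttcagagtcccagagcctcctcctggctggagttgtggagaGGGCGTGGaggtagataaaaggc
Slc25a20: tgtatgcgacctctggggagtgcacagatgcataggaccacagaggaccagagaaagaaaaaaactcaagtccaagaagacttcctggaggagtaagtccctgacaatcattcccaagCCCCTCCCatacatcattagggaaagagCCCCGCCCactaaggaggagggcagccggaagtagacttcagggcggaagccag
Of the 38 genes, 32 had a promoter entry, and Decr1, Fabp4, Acaa2, Lpl, Cpt1b and Angptl4 did not. The exact form of the element of PPAR and RXR, AGGTCA repeated in the same direction with any 1 base between, was searched. The windows ran from 250 bases before to 50 after the start. The element was in 0 of the 32 genes and in 0.0396% of all 32851 windows. So rare a sequence cannot set these genes apart from others, and inexact forms or other regions were not searched. AGGTCA was in 9 of 32 (Acadm, Acadvl, Cd36, Cpt1a, Echs1, Plin2, Plin5, Rxra and Ucp3) and in 16.3% of all windows. CCNCNCCC was in 27 of 32 and in 49.5% of all windows. The palindromic glucocorticoid response element was in 0 of 32 (0.0487% of all), the STAT-type site TTCCNGGAA in 0 of 32 (1.15%) and the E-box CACGTG in 2 of 32, Plin2 and Slc27a1 (7.15%). In these counts a gene of the 32 counts where any of its windows matches, whereas the shares over all are per window. A gene with more than 1 window would have more chances of a match. The counts and shares are therefore not like for like, and no excess is read from them. Both strands were searched, AGGTCA hits include those within a direct repeat, and a match describes letters, not binding.

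None of the 3 regulators was called in any comparison. Ppara, the main PPAR of cardiomyocytes (chromosome 15, 85734983 to 85802819, plus strand, GRCm38), had 28.1, 28.1, 30.9 and 30.3 CPM in I/R + ML264, 28.6, 26.7, 36.5 and 28.3 CPM in I/R and 29.7, 27.6, 23.3 and 27.8 CPM in Sham. All 3 groups overlapped, with I/R library 3 the highest and Sham library 3 the lowest. Its log2 fold change was 0.15 ± 0.11 (SE) in I/R against Sham, with a 95% interval of -0.07 to 0.37 and an edgeR adjusted p of 0.436. Against I/R, I/R + ML264 gave -0.03 ± 0.10 (95% interval -0.25 to 0.19, adjusted p = 0.941), a fold of 0.977. Ppard, the more widely expressed PPAR, had 7.71 ± 0.914 CPM in I/R + ML264, 9.28 ± 2.66 CPM in I/R and 7.57 ± 1.24 CPM in Sham (SD, n = 4). Rxra, the partner receptor, had 18.6 ± 0.536 CPM in I/R + ML264, 18.3 ± 1.13 CPM in I/R and 19.4 ± 1.32 CPM in Sham (SD, n = 4).

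Among the 6 genes of uptake, binding and activation, Lpl was called and the other 5 were not. Lpl (chromosome 8, 68880491 to 68907448, plus strand) had 1946, 2188, 2145 and 2119 CPM in I/R + ML264, 2199, 2137, 2258 and 2190 CPM in I/R and 1915, 1927, 1901 and 1734 CPM in Sham. The 4 I/R libraries all lay above the 4 Sham libraries, and so did the 4 I/R + ML264 libraries. The rise in I/R against Sham was small, a log2 fold change of 0.23 ± 0.06 (SE, edgeR adjusted p = 0.0358). The call was lost without any 1 library of Sham or I/R, with the log2 fold change at 0.20 to 0.25 over the 12 fits that left out 1 library and adjusted p at 0.0321 to 0.124. Lpl had a log2 fold change of 0.17 ± 0.06 in I/R + ML264 against Sham and was not called (adjusted p = 0.27). Lpl was the only one of the 38 genes whose groups did not overlap in that comparison, where 7.37% of all genes did not overlap, 3.99% with the higher values in I/R + ML264.

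Cd36, the main fatty acid translocase of the plasma membrane (chromosome 5, 17781690 to 17888801, minus strand), had 1345, 1280, 1275 and 1349 CPM in I/R + ML264, 1208, 1197, 1153 and 1098 CPM in I/R and 1144, 1270, 1301 and 1172 CPM in Sham. Every I/R + ML264 library lay above every I/R library, and Sham overlapped both. The log2 fold change in I/R + ML264 against I/R was 0.17 ± 0.07 (SE), with an edgeR adjusted p of 0.358, so it was not called. Endothelial cells express Cd36 too, and 12 endothelial markers summed to 626 to 747 CPM in I/R + ML264, 648 to 699 CPM in I/R and 668 to 707 CPM in Sham.

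Acsl1, the main acyl-CoA synthetase of the heart, had 588 ± 31.2 CPM in I/R + ML264, 595 ± 30.9 CPM in I/R and 592 ± 55.5 CPM in Sham (SD, n = 4). Slc27a1, a fatty acid transport protein, had 34.9 ± 4.28 CPM in I/R + ML264, 29.5 ± 2.12 CPM in I/R and 29.1 ± 5.46 CPM in Sham. Fabp3, the fatty acid binding protein of heart muscle, had 186 ± 21.7 CPM in I/R + ML264, 222 ± 25.7 CPM in I/R and 224 ± 33.9 CPM in Sham. Its log2 fold change in I/R + ML264 against I/R was -0.26 ± 0.11 (SE, edgeR adjusted p = 0.432) with overlapping groups, and it shares 50.1% of its 31-base words with other genes, mainly Fabp3-ps1, so its level is uncertain. Fabp4, a binding protein of adipocytes, capillary endothelium and macrophages, was the most uneven of the 6 at 32.4 to 59.8 CPM in I/R + ML264, 39.4 to 57.4 CPM in I/R and 39.9 to 87.1 CPM in Sham.

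In the carnitine shuttle, Slc25a20 was the gene that changed. It (chromosome 9, 108662088 to 108684641, plus strand) had 36.9, 34.4, 39.5 and 40.3 CPM in I/R + ML264, 28.9, 31.1, 33.2 and 30.9 CPM in I/R and 40.9, 34.2, 37.6 and 42.2 CPM in Sham. The 4 I/R libraries were the 4 lowest of the 12, and I/R + ML264 and Sham overlapped. In I/R against Sham the log2 fold change was -0.32 ± 0.09 (SE, edgeR adjusted p = 0.0332). It was 0.28 ± 0.09 in I/R + ML264 against I/R and not called (adjusted p = 0.266), and the 2 comparisons share the I/R libraries. The call in I/R against Sham was lost without Sham library 1, 3 or 4 or I/R library 1, 2 or 4 (adjusted p 0.0257 to 0.109 over the 12 fits). With Ddx3y as a covariate the log2 fold change was -0.26 ± 0.09 (adjusted p = 0.127), and with Arntl as a covariate it was -0.40 ± 0.09 (adjusted p = 0.0227).

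The enzymes on either side of that carrier showed no call. Cpt1b, the muscle form of the outer carnitine palmitoyltransferase (chromosome 15, 89416405 to 89425863, minus strand), had 122, 104, 117 and 109 CPM in I/R + ML264, 113, 93.5, 115 and 108 CPM in I/R and 103, 104, 90.5 and 116 CPM in Sham. The 3 groups overlapped, and 79.7% of its 31-base words occur in the adjoining Chkb, so its level is uncertain. Cpt2, the inner enzyme, had 73.4 ± 3.51 CPM in I/R + ML264, 76.7 ± 10.4 CPM in I/R and 75.2 ± 7.67 CPM in Sham (SD, n = 4). Cpt1a, the form best known from liver, had 28.7 ± 6.48 CPM in I/R + ML264, 24.7 ± 3.48 CPM in I/R and 27.2 ± 4.42 CPM in Sham. Mlycd degrades malonyl-CoA, the inhibitor of the outer enzyme, and had 5.82 ± 0.28 CPM in I/R + ML264, 5.79 ± 1.23 CPM in I/R and 5.94 ± 0.988 CPM in Sham.

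**Figure D3:**
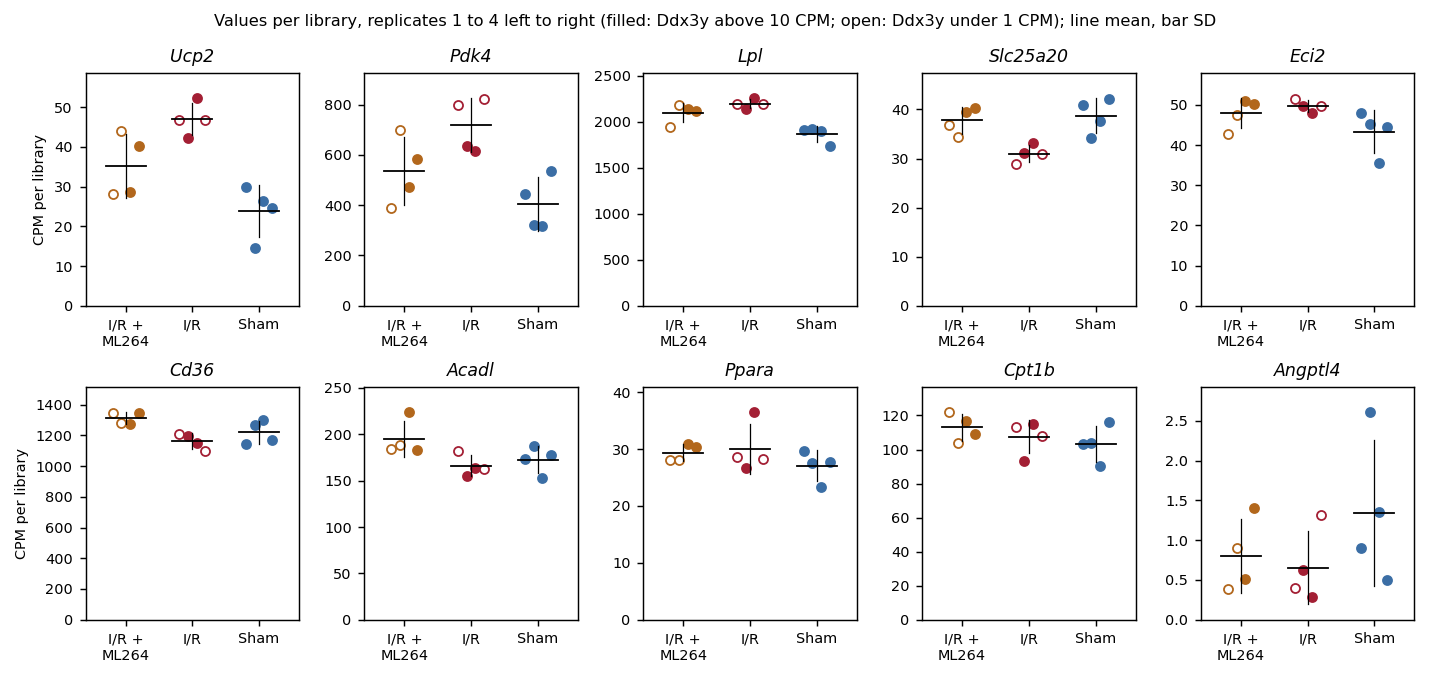
CPM in each library for 10 genes, replicates 1 to 4 from left to right within I/R + ML264, I/R and Sham, with a line at the mean and a bar for the SD (n = 4). Filled points are libraries with Ddx3y above 10 CPM and open points those below 1 CPM. The I/R libraries lie above all Sham libraries for Ucp2, Pdk4, Lpl and Eci2 and below them for Slc25a20.

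For the beta oxidation machinery itself, the 9 enzymes of the spiral, 3 enzymes for unsaturated fatty acids and 3 electron carriers together summed to 2756 ± 227 CPM in I/R + ML264, 2706 ± 150 CPM in I/R and 2586 ± 205 CPM in Sham (SD, n = 4). In I/R against Sham their log2 fold changes ran between -0.08 (Decr1) and 0.20 (Eci2), and the 95% intervals of all 15 lay within -0.31 to 0.39, or 0.806-fold to 1.31-fold. In I/R + ML264 against I/R the log2 fold changes ran between -0.17 (Acads) and 0.23 (Acadl), with intervals within -0.42 to 0.41. By edgeR 0 of the 15 were called in either comparison, beside 7.75% of all genes in I/R against Sham and 0.0502% in I/R + ML264 against I/R. In each comparison 1 of the 15 was at an unadjusted p under 0.05, Eci2 and Acadl, beside 23.2% and 10.4% of all genes. By DESeq2 none of the 15 was called.

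Hadha and Hadhb, the subunits of the trifunctional protein that handles long chains, were the most abundant per length of the spiral together with Acadm. Hadhb had 675 ± 75.7 CPM in I/R + ML264, 677 ± 36.3 CPM in I/R and 633 ± 52.1 CPM in Sham (SD, n = 4). Hadha had 572 ± 27.8 CPM in I/R + ML264, 574 ± 35.6 CPM in I/R and 533 ± 48.6 CPM in Sham. The acyl-CoA dehydrogenases open each round. Acadm, for medium chains, had 233 ± 18.4 CPM in I/R + ML264, 237 ± 13.7 CPM in I/R and 220 ± 27.1 CPM in Sham. Acadvl, for very long chains, had 122 ± 8.86 CPM in I/R + ML264, 116 ± 14.4 CPM in I/R and 109 ± 8.86 CPM in Sham, with 33.2% of its words shared with Dvl2 and an uncertain level. Acads, for short chains, was the lowest of the 4 per length, with 6.6 ± 0.702 CPM per kb over the 12 libraries. It had 11.4 ± 0.936 CPM in I/R + ML264, 12.9 ± 1.71 CPM in I/R and 12.7 ± 0.939 CPM in Sham.

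Acadl, for long chains (chromosome 1, 66830839 to 66863277, minus strand), had 184, 188, 224 and 183 CPM in I/R + ML264, 182, 155, 164 and 163 CPM in I/R and 173, 187, 153 and 178 CPM in Sham. Every I/R + ML264 library lay above every I/R library (183 against 182 CPM at the closest), and library 3 of I/R + ML264 stood well above its group. Acadl had a log2 fold change of 0.23 ± 0.08 (SE) in I/R + ML264 against I/R, with an edgeR adjusted p of 0.336. Echs1, the hydratase, had 28.9 to 38.2 CPM in I/R + ML264, 32.8 to 36.8 CPM in I/R and 30.6 to 35.8 CPM in Sham. Hadh, the dehydrogenase for short chains, had 58.2 to 84.6 CPM in I/R + ML264, 62.1 to 69.5 CPM in I/R and 68.4 to 69.7 CPM in Sham. Acaa2, a thiolase of the spiral, had 101 to 131 CPM in I/R + ML264, 95.4 to 115 CPM in I/R and 93.2 to 119 CPM in Sham.

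Unsaturated fatty acids need extra isomerases and a reductase. Eci2, an enoyl-CoA isomerase (chromosome 13, 34977748 to 35027096, minus strand), had 42.8, 47.6, 51.1 and 50.3 CPM in I/R + ML264, 51.6, 49.7, 48 and 49.7 CPM in I/R and 47.9, 45.3, 35.6 and 44.6 CPM in Sham. The I/R libraries lay just above the Sham libraries, with Sham library 3 far below the rest. Eci2 had a log2 fold change of 0.20 ± 0.09 (SE) in I/R against Sham, and the edgeR adjusted p of 0.199 did not pass. Eci1 had 20.6 ± 1.32 CPM in I/R + ML264, 19.5 ± 1.58 CPM in I/R and 19.7 ± 2.19 CPM in Sham (SD, n = 4). Decr1, the reductase, had 145 ± 22.1 CPM in I/R + ML264, 143 ± 15.5 CPM in I/R and 151 ± 15.7 CPM in Sham.

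Etfa and Etfb, the subunits of the electron transfer flavoprotein, and Etfdh, which hands its electrons to ubiquinone, were not called. Etfa had 120 ± 6.08 CPM in I/R + ML264, 108 ± 9.62 CPM in I/R and 112 ± 9.02 CPM in Sham (SD, n = 4). Etfb had 95.1 ± 13 CPM in I/R + ML264, 89.7 ± 3.1 CPM in I/R and 87.2 ± 5.78 CPM in Sham, with 49.9% of its words shared, mainly with Gm45233, and an uncertain level. Etfdh had 304 ± 20.3 CPM in I/R + ML264, 310 ± 23.3 CPM in I/R and 283 ± 19.7 CPM in Sham.

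Single libraries held extreme values for many of these 15 genes at once. I/R + ML264 library 3 held the highest value of the 12 libraries for 9 of the 15 and Sham library 3 the lowest for 8, while 7.06% of all tested genes were highest and 9.8% lowest in these libraries. The mean of the 15 log2 levels, centred over the 12 libraries, was 0.20 in I/R + ML264 library 3, 0.10 in I/R library 4 and -0.16 in Sham library 3, and between -0.09 and 0.07 in the other 9. For 5313 genes of like abundance the median was 0.00 in I/R + ML264 library 3, 0.02 in I/R library 4 and -0.04 in Sham library 3. What sets these libraries apart was not tested. Over all 38 genes, Sham library 3 was the lowest for 18.

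**Figure D4:**
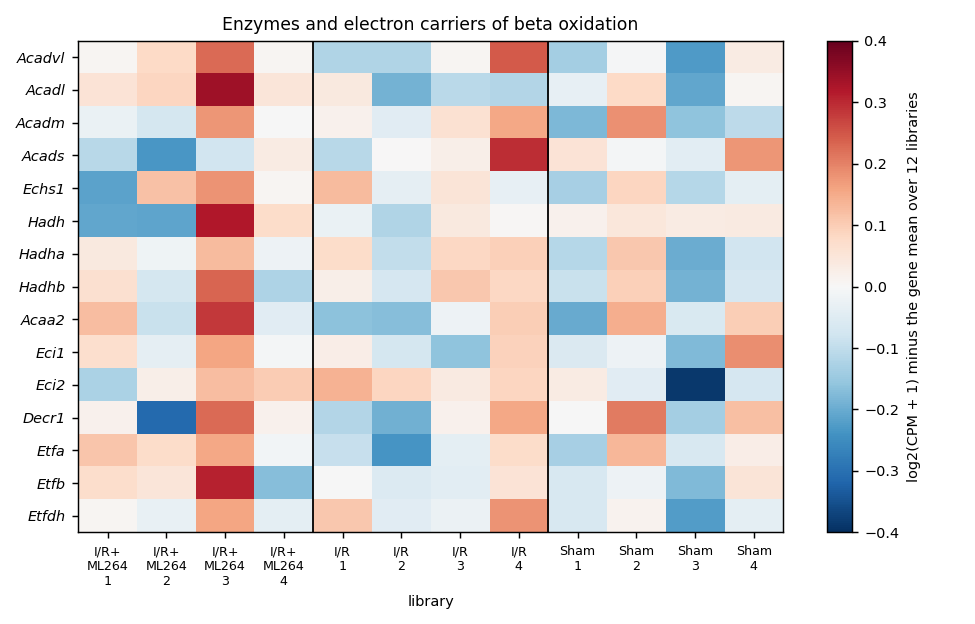
Log2(CPM + 1) of the 15 enzymes and electron carriers of beta oxidation (rows) in each of 12 libraries (columns), minus the mean of each gene over the libraries. Red is higher and blue lower; I/R + ML264 library 3 is red in every row but that of Acads, and Sham library 3 is mostly blue, while no block of columns stands out by group.

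Of the uncoupling proteins, Ucp2 changed and Ucp3 did not pass. Ucp2 (chromosome 7, 100493337 to 100502020, plus strand) had 28.1, 43.9, 28.7 and 40.3 CPM in I/R + ML264, 46.9, 42.3, 52.3 and 46.7 CPM in I/R and 30, 14.6, 26.4 and 24.7 CPM in Sham. All I/R libraries lay above all Sham libraries. I/R + ML264 split into libraries 2 and 4 near the I/R range and libraries 1 and 3 within the Sham range. The log2 fold change in I/R against Sham was 0.98 ± 0.20 (SE, edgeR adjusted p = 0.0153), and the call was kept in all 12 fits that left out 1 library, with 0.79 to 1.10. With Ddx3y as a covariate it was 0.99 ± 0.24 (adjusted p = 0.0508) and with Arntl as a covariate 0.93 ± 0.24 (adjusted p = 0.0584). In the libraries with Ddx3y above 10 CPM alone it was 0.99 ± 0.28 (adjusted p = 0.12). It was 0.56 ± 0.20 in I/R + ML264 against Sham (adjusted p = 0.265).

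Leukocytes also express Ucp2, and neutrophil markers moved with the injury. Of 12 neutrophil markers 9 were tested and 4 were called higher in I/R against Sham, at a summed 6.1 to 24.2 CPM in I/R + ML264, 10.4 to 27.7 CPM in I/R and 5.32 to 8.02 CPM in Sham. S100a8, S100a9 and Ly6g, which define these cells, were below the filter. Of 12 markers of monocytes and macrophages none was called higher and 2 were called lower, at 131 to 154 CPM in I/R + ML264, 132 to 158 CPM in I/R and 121 to 206 CPM in Sham. The part of leukocytes in the Ucp2 result was not tested.

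Ucp3, the form typical of skeletal muscle and heart (chromosome 7, 100472990 to 100486432, plus strand), had 22.5 ± 4.67 CPM in I/R + ML264, 19.8 ± 8.29 CPM in I/R and 22.1 ± 3.34 CPM in Sham (SD, n = 4). The thioesterases Acot1 and Acot2, which free fatty acids from acyl-CoA in the cytosol and in mitochondria, were not called. Acot2 had 13.4 ± 1.74 CPM in I/R + ML264, 12.6 ± 2.23 CPM in I/R and 13.3 ± 1.76 CPM in Sham, and Acot1 had 0.947 ± 0.535 CPM in I/R + ML264, 0.726 ± 0.219 CPM in I/R and 1.07 ± 0.401 CPM in Sham. Acot1 shares 39.2% of its words, mainly with Acot2, and Acot2 shares 37.8%, mainly with Acot1, so both are uncertain.

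Pdk4 (chromosome 6, 5483351 to 5496309, minus strand) had 388, 699, 472 and 582 CPM in I/R + ML264, 798, 637, 617 and 823 CPM in I/R and 444, 321, 316 and 536 CPM in Sham. The I/R libraries lay above the Sham libraries, and I/R + ML264 ranged over both. The log2 fold change was 0.83 ± 0.22 (SE, edgeR adjusted p = 0.0444) in I/R against Sham. It was -0.42 ± 0.22 (adjusted p = 0.535) in I/R + ML264 against I/R and 0.41 ± 0.22 (adjusted p = 0.472) in I/R + ML264 against Sham. The call was kept in 3 of 12 such fits and lost without Sham library 1, 2 or 3, any 1 I/R library, or I/R + ML264 library 3 or 4, with adjusted p up to 0.116. I/R libraries 1 and 4, the highest of that group, are those with low Ddx3y. In I/R + ML264 the libraries with low Ddx3y, 1 and 2, held the lowest and the highest Pdk4 of their group, 388 and 699 CPM. In the libraries with Ddx3y above 10 CPM alone the log2 fold change in I/R against Sham was 0.63 ± 0.22 (edgeR adjusted p = 0.196).

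Angptl4, a secreted inhibitor of lipoprotein lipase and a PPAR target (chromosome 17, 33773750 to 33781830, minus strand), was the lowest of the 38 genes per length. It had 0.39, 0.904, 0.506 and 1.41 CPM in I/R + ML264, 0.403, 0.629, 0.282 and 1.31 CPM in I/R and 0.905, 2.61, 1.35 and 0.493 CPM in Sham. The groups overlapped and each spread widely. The log2 fold change in I/R against Sham was -1.03 ± 0.56 (SE), with a 95% interval of -2.21 to 0.16 and an edgeR adjusted p of 0.289. Neither a fall nor the lack of one was resolved, at 7 to 72 estimated counts per library.

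The genes of lipid droplets were not called. Plin2, a coat protein of droplets in most cells, had 22.6 ± 2.04 CPM in I/R + ML264, 25.9 ± 3.85 CPM in I/R and 28.7 ± 4.79 CPM in Sham (SD, n = 4), with a log2 fold change of -0.35 ± 0.13 (SE, edgeR adjusted p = 0.25) in I/R + ML264 against Sham. Plin5, the droplet coat of oxidative tissues, had 13.5 ± 1.92 CPM in I/R + ML264, 12.2 ± 1.72 CPM in I/R and 11.7 ± 2.19 CPM in Sham. Pnpla2, the lipase that starts the breakdown of stored triglyceride, had 40.9 ± 2.34 CPM in I/R + ML264, 41 ± 2.17 CPM in I/R and 34.9 ± 4.58 CPM in Sham. Its log2 fold change was 0.23 ± 0.09 in I/R against Sham, with an adjusted p of 0.143.

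Over all 38 genes the median log2 fold change in I/R against Sham was 0.01, against 0.00 over all tested genes. The median size of the change, whichever its sign, was 0.09 for the 38 genes, 0.22 for all genes and 0.14 for the 5313 genes with a mean of 11.1 to 569 CPM. At an unadjusted p under 0.05 stood 6 of the 38 genes and 23.2% of all genes. Groups did not overlap for 5 of the 38, Lpl, Ucp2, Pdk4 and Eci2 higher and Slc25a20 lower, and for 15.8% of all genes, 8.54% higher and 7.25% lower.

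In I/R + ML264 against I/R, edgeR called 0 of the 38 genes, where it called 0.0502% of all genes, and DESeq2 also called 0. At an unadjusted p under 0.05 stood 4 of the 38 genes (Cd36, Fabp3, Slc25a20 and Acadl) and 10.4% of all genes. The groups did not overlap for 3 of the 38, Cd36, Slc25a20 and Acadl, all higher in I/R + ML264, and for 5.62% of all genes, 2.54% higher in I/R + ML264. The median log2 fold change of the 38 was 0.02. In I/R + ML264 against Sham, edgeR called 0 of the 38 and 0.288% of all genes, DESeq2 called 0 of the 38, and 6 of the 38 and 13% of all genes stood at an unadjusted p under 0.05. These were Lpl, Slc27a1, Ucp2 and Pnpla2 with positive and Fabp3 and Plin2 with negative log2 fold changes.

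Around these 38 genes, a list of 107 other genes of the pathway was examined, of which 95 were tested. In I/R against Sham edgeR called 7 higher and 2 lower, beside 4.58% higher and 3.17% lower over all genes tested. The 9 calls came to 1 with Ddx3y as a covariate, that of Plin4, to 2 in the libraries above 10 CPM of Ddx3y alone, those of Plin4 and Ppargc1a, and to 5 with Arntl as a covariate. With ML264, edgeR called 0 against I/R and 0 against Sham, where it called 0.0502% and 0.288% of all genes. By edgeR 13 and 18 of the 95 had an unadjusted p under 0.05, beside 10.4% and 13% of all genes. DESeq2 called 2 of the 95 in each comparison, and 151 and 370 of all 15952 genes. Plin4, a droplet coat protein of adipocytes and muscle, had 98.3, 175, 117 and 157 CPM in I/R + ML264, 206, 144, 152 and 158 CPM in I/R and 99.6, 73.6, 60.8 and 81.4 CPM in Sham, all I/R libraries above all Sham libraries. Its log2 fold change was 1.07 ± 0.20 (SE, edgeR adjusted p = 0.0117), and it was called in all 25 alternative fits. Plin4 is also on the list of adipocyte markers, which summed to 122 to 210 CPM in I/R + ML264, 177 to 247 CPM in I/R and 84.5 to 127 CPM in Sham. These sums include Plin4 itself, at 98.3 to 175 CPM in I/R + ML264, 144 to 206 CPM in I/R and 60.8 to 99.6 CPM in Sham. They are therefore not separate from its rise. Of these 12 markers 1 was called, Plin4 itself, and Adipoq, Cidec, Lep, Cfd and Ucp1 were below the filter.

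Ppargc1a, the coactivator PGC-1alpha of PPARs and mitochondrial biogenesis, had 252, 552, 332 and 370 CPM in I/R + ML264, 1134, 508, 430 and 641 CPM in I/R and 302, 241, 194 and 243 CPM in Sham. I/R library 1 was the highest by far, and the I/R and Sham groups did not overlap. Ppargc1a rose by 1.47 ± 0.34 on the log2 scale (SE, edgeR adjusted p = 0.0311), a call lost without Sham library 2, 3 or 4 or I/R library 4, with only the 2 groups in the fit, with the replicate block and with Ddx3y as a covariate (adjusted p up to 0.107). Klf15, a regulator of cardiac lipid genes that was named after its values were seen, rose by 0.85 ± 0.25 (adjusted p = 0.0477), a call that leaving out any 1 library ended, I/R + ML264 library 1 excepted, and that 7 of 13 other alternatives ended, those on Ddx3y and Arntl among them. Over all these fits its adjusted p reached 0.131.

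Acsl4, a synthetase for polyunsaturated fatty acids, had 16 ± 3.48 CPM in I/R + ML264, 20.6 ± 2.68 CPM in I/R and 14.3 ± 1.25 CPM in Sham (SD, n = 4, log2 fold change in I/R against Sham 0.53 ± 0.14, edgeR adjusted p = 0.0298). Mgll, the monoglyceride lipase, rose by 0.36 ± 0.10 (adjusted p = 0.0417). Acot9, a mitochondrial thioesterase that shares 28.6% of its words, mainly with Acot10, and is uncertain, had 6.54 ± 0.599 CPM in I/R + ML264, 6.98 ± 0.444 CPM in I/R and 4.65 ± 0.405 CPM in Sham, called in all 12 fits that left out 1 library but in neither fit on Ddx3y (adjusted p up to 0.111). The calls of Acsl4 and Mgll were lost in 6 and 7 of those fits, for Acsl4 on leaving out any 1 Sham library or I/R library 2 or 4, and for Mgll on leaving out Sham library 2, 3 or 4, I/R library 1, 2 or 3 or I/R + ML264 library 1. Both calls also ended in the fits on Ddx3y and with Arntl as a covariate, that of Acsl4 with the replicate block, and that of Mgll with upper-quartile factors, with no filter and with only the 2 groups. Over all 25 alternatives the adjusted p by edgeR or another tool reached 0.125 for Acsl4 and 0.113 for Mgll.

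The 2 lower genes belong to the oxidation of fatty acids in peroxisomes. Acaa1a, the peroxisomal thiolase, had 5.29, 4.78, 7.52 and 6.22 CPM in I/R + ML264, 2.42, 4.05, 4.18 and 2.88 CPM in I/R and 5.38, 4.67, 6.98 and 8.56 CPM in Sham. All 4 I/R libraries were lower than the other 8. Acaa1a had a log2 fold change of -0.92 ± 0.22 (SE, edgeR adjusted p = 0.0194) in I/R against Sham and 0.81 ± 0.22 (adjusted p = 0.192) in I/R + ML264 against I/R, comparisons that share the I/R libraries. Acox3, an acyl-CoA oxidase for branched chains, fell by 0.35 ± 0.10 on the log2 scale in I/R against Sham (adjusted p = 0.0337). The call of Acaa1a ended when Sham library 3 or 4 or I/R library 1 or 4 was left out, and that of Acox3 when Sham library 1, 2 or 3 or I/R library 1, 3 or 4 was. Neither was called in the fits on Ddx3y, where the adjusted p reached 0.168 for Acaa1a and 0.196 for Acox3, and the call of Acox3 also ended with the replicate block and with Arntl as a covariate.

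**Figure D5:**
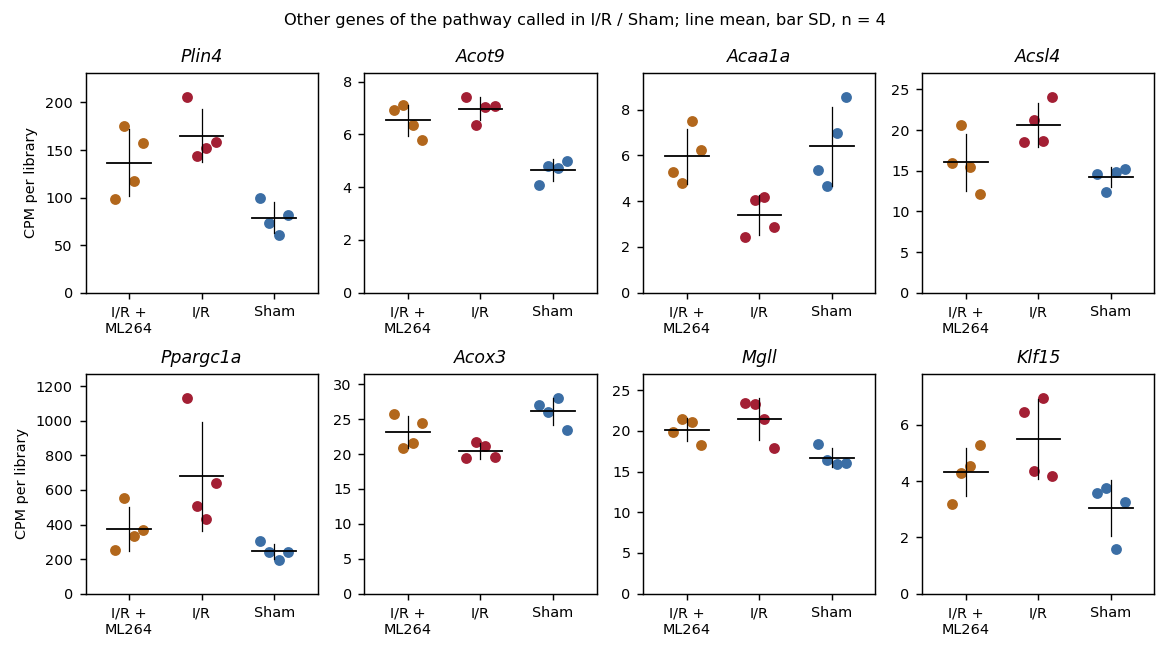
CPM in each library for 8 other pathway genes called in I/R against Sham, replicates 1 to 4 from left to right within I/R + ML264, I/R and Sham, with a line at the mean and a bar for the SD (n = 4). The I/R libraries lie above all Sham libraries for Plin4, Acot9, Acsl4, Ppargc1a and Klf15 and below them for Acaa1a and Acox3, and they overlap Sham for Mgll.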

How the data were processed

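TRIzol was used to extract total RNA and the Nextera XT kit to prepare the libraries, per the labels' protocols. The kit does not mark strand, so overlapping and antisense genes cannot be told apart. The labels name 2 sequencers for every library. The authors deposited a single table that holds unnormalized estimated counts for transcripts (104952 transcripts, 33615 gene symbols). FastQC, kallisto and the GRCm38 (mm10) build are named per the submitters' processing notes, with versions not given in the sources used here.

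All estimated counts of a gene symbol were added up, and the sums were rounded to integers. Genes passing filterByExpr at its minimum of 10 counts (15952) were fitted in 1 model over 12 libraries by the quasi-likelihood F-test of edgeR 4.0.16 (R 4.3.3), with TMM factors and a robust spread. The fit was tested on simulated data. A gene is called where its p, adjusted over all tested genes by Benjamini-Hochberg, is under 0.05. Total estimated counts were 22.26 to 29.93 M per library. Coordinates came from GENCODE M21 (GRCm38), promoters from RefSeq (GRCm38.p6). Genes sharing over 25% of their 31-base words with other genes are reported as uncertain.

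Length-scaled transcript values were planned for levels between genes. The transcript values could not be followed by name, so CPM per kilobase of the longest coding transcript was used instead. Alternatives were DESeq2 1.42.0, limma 3.58.1 (voom with library weights), other factors and filters, a replicate block, Ddx3y or Arntl as covariates and leaving out each library. The 38 genes, the other lists and the rule for named genes were chosen with earlier results of these data known. The rule names genes called in any comparison, genes whose groups do not overlap in I/R against Sham or in I/R + ML264 against I/R, and Ppara, Cpt1b, Cd36, Pdk4 and Angptl4. Of the other pathway genes it names at most 8 called per comparison by smallest adjusted p. Among those, 1 gene is not reported here.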

Additional observations from a re-analysis of the deposited data

Results flagged for a closer look

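Of 114 groups of 4 libraries examined (38 genes in 3 groups), 4 held a library whose gap to its nearest neighbour, as a share of the range of the group, was above 0.829, a limit that chance passes in about 1 in 20 groups. Acadl in I/R + ML264 library 3 was at 224 CPM, with the other 3 at 183, 184 and 188 CPM. Hadha in I/R library 2 was at 521 CPM, with the others at 587, 591 and 597 CPM. Acot2 in I/R library 4 was at 15.9 CPM, with the others at 11.2, 11.4 and 11.8 CPM. Lpl in Sham library 4 was at 1734 CPM, with the others at 1901, 1915 and 1927 CPM.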

How the results depend on the processing

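In I/R + ML264 against I/R and against Sham, 0 of the 38 genes were called in each of 25 alternative fits. In I/R against Sham 4 were called, 0 with Ddx3y as a covariate or with the libraries above 10 CPM of Ddx3y alone, 1 with Arntl as a covariate, and 1 to 4 in the fits that left out 1 library. With the replicate number as a block 3 were called (Pdk4, Slc25a20 and Ucp2). Libraries that share a number showed no common deviation over the tested genes (correlations of -0.11 to 0.0971). The labels give the numbers no meaning, and with 4 libraries per group these values cannot exclude pairing. No gene of the 38 or of the 8 others named reversed its direction while called. All genes called in I/R against Sham numbered 1236, against 546 and 553 in the 2 fits on Ddx3y, 636 with Arntl and 659 to 738 without Sham library 2, 3 or 4 or I/R library 4, with 731 higher and 505 lower, or 620 and 676 with upper-quartile factors. For I/R + ML264 against I/R the number was 8, against 151 with DESeq2, 22 with no filter, 2 with a non-robust spread, 1 with the block, 2 in the libraries high in Ddx3y, 85 without I/R + ML264 library 2 and 0 without I/R + ML264 library 1. For I/R + ML264 against Sham it was 46, against 370 with DESeq2, 78 with no filter, 72 with a non-robust spread, 27 with only the 2 groups or with voom, 19 with the block, 12 with Ddx3y or Arntl as a covariate and 27 in the libraries high in Ddx3y, and 9 to 101 without 1 library.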
